A study of Mus musculus with 4 samples.

Results

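Wfs1 is 1 gene of the 32285 counted in each library, and its levels are given here for every class of nuclei that could be recognised from marker transcripts in the mouse basolateral amygdala (BLA). It encodes wolframin, a glycoprotein of the endoplasmic reticulum (ER) membrane. Wolframin takes part in ER calcium handling and in restraining the unfolded protein response, the programme by which cells react to misfolded protein in the ER, and loss of its function causes Wolfram syndrome, with diabetes and neurodegeneration. In the rodent forebrain Wfs1 is known for strong expression in the central extended amygdala, the striatum and the hippocampal field CA1. The series title names BLA neurons that express the gene, which is why its distribution over the cells of this dissection was of interest.

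Single-nucleus RNA libraries (10x 3' v3 chemistry) were made from C57BL/6J mice of genotype WT and of genotype DISC1-N (also written DISC-N in the labels), with 2 libraries for each. Each group pooled the BLA of both hemispheres from 5 mice, and all animals, WT included, were killed 6 h after an intraperitoneal dose of tamoxifen. Whether the libraries of a genotype came from separate animals is not stated, so the spread between them may be technical. The labels say nothing more of the DISC1-N allele or of what tamoxifen does in these mice.

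The libraries held 37840301 to 48439711 unique molecular identifiers (UMIs, 1 per captured transcript) in 4654 to 8381 barcodes, and 711 to 1050 of those UMIs were Wfs1. Any pair of libraries shared 5 to 21 barcodes. After filtering, 25332 nuclei remained, and 18557 of them (73.3%) were placed in a class by their marker UMIs, none of which was Wfs1. Both replicate 1 libraries were processed with another Cell Ranger version than both replicate 2 libraries, and excitatory nuclei of replicate 1 also carried more GABAergic, astrocyte and mature oligodendrocyte marker UMIs. GABAergic markers stood at 57.3 and 52.4 CPM there against 25.0 and 16.0 CPM in replicate 2 (CPM, counts-per-million of the UMIs summed over the nuclei of a class).

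Wfs1 lies on chromosome 5 of GRCm38 (mm10), from 36966104 to 36989205 on the minus strand (ENSMUSG00000039474 in GENCODE vM21). Its main transcript has 8 exons and a coding sequence of 2670 bases within a spliced length of 3787 bases. The 3' end, where this chemistry reads, lies in the last exon (36966104 to 36968678), and 0 other annotated genes overlap the locus. The nearest neighbours on either side are Ppp2r2c and Jakmip1, at 11026 and 39130 bases.

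Among the 19 classes with 20 nuclei or more per library, Wfs1 was highest in GABAergic neurons that express Foxp2 and Penk. Foxp2 encodes a forkhead transcription factor that marks intercalated and other striatal-like amygdala neurons, and Penk encodes the precursor of enkephalin. The Foxp2 Penk class held 523 nuclei. Its Wfs1 level was 111.6 and 97.3 CPM in WT replicates 1 and 2, and 90.5 and 79.2 CPM in DISC1-N replicates 1 and 2, a mean of 94.6 ± 13.6 CPM (SD, n = 4 libraries). A Wfs1 UMI was found in 33.3% ± 5.50 of these nuclei, at a median depth of 3541 to 4078 UMIs per nucleus. The next class, Foxp2 neurons with 1 Penk UMI or with 0 UMIs of both Penk and Kcnh8 (Foxp2 low, 919 nuclei), stood at 51.8, 69.2, 74.4 and 56.7 CPM in the same order, a mean of 63.0 ± 10.5 CPM. The ranges of these classes did not overlap, and the Foxp2 Penk class was higher in 4 of 4 libraries. A further set, Foxp2 neurons with Kcnh8 and no Penk, was scarce (182 nuclei, 16 to 77 per library) and stood at 36.2 ± 14.8 CPM. Nuclei with Prkcd, which encodes protein kinase C delta and is best known from the central amygdala, were scarcer still (57 nuclei, 3 in 1 library) and stood at 95.5 ± 13.3 CPM. The labels name the BLA alone, and whether the Foxp2 and Prkcd nuclei lay inside it cannot be told from the counts.

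**Figure D1:**
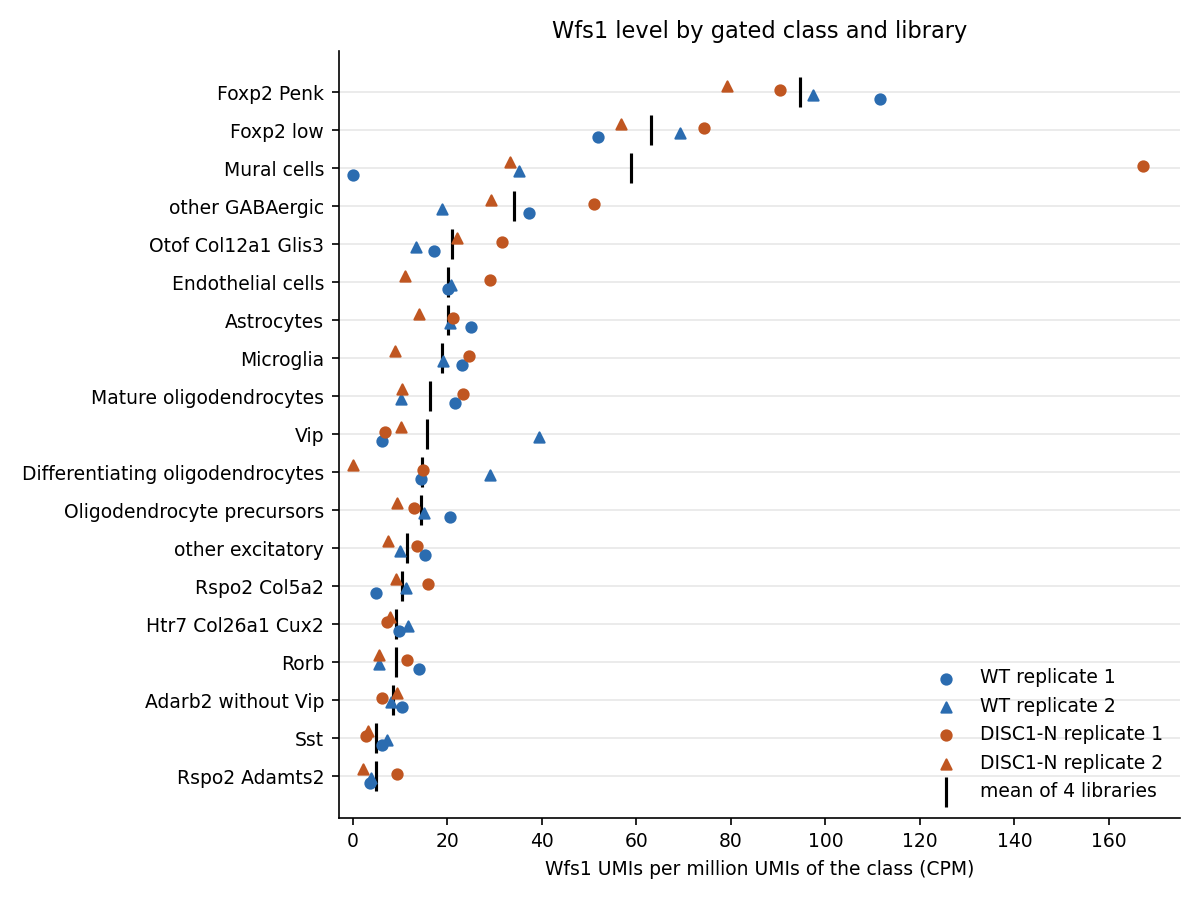
Wfs1 level (CPM, x axis) in the 19 classes that held 20 or more nuclei per library, ordered by the mean (y axis); points are the 4 libraries, coloured by genotype and shaped by replicate, and the bar is their mean. The Foxp2 Penk class spans 79.2 to 111.6 CPM, above every library of the Foxp2 low class, while mural cells run from 0 to 167.3 CPM on 11 UMIs.

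The other GABAergic classes were low. Sst neurons, which make somatostatin, stood at 6.17 and 7.26 CPM in WT and at 2.87 and 3.15 CPM in DISC1-N libraries, from 1 to 5 Wfs1 UMIs per library. Adarb2 neurons without Vip stood at 8.48 ± 1.81 CPM and were above the Sst class in 4 of 4 libraries, although the ranges of the classes overlapped. Vip neurons reached 39.4 CPM in WT replicate 2 on 6 UMIs and 6.08 to 10.2 CPM in the other libraries. GABAergic nuclei that met no subtype rule stood between, at 34.1 ± 13.6 CPM. Pvalb neurons (80 nuclei) held 4 Wfs1 UMIs in all.

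Excitatory neurons as a whole had little Wfs1, and 1 of their subtypes had a higher mean than the rest. The class (5724 nuclei) stood at 14.1 and 13.6 CPM in the replicate 1 libraries and at 9.61 and 7.51 CPM in the replicate 2 libraries, WT first. The split by replicate number was thus larger than the split by genotype. The Otof Col12a1 Glis3 subtype (160 nuclei) had 17.2 and 13.3 CPM in WT and 31.5 and 22.0 CPM in DISC1-N libraries, a mean of 21.0 ± 7.86 CPM. Excitatory nuclei that met no subtype rule (4485 nuclei) stood at 11.5 ± 3.49 CPM. Their range (7.49 to 15.2 CPM) and those of the Rspo2 Col5a2 and Rorb subtypes overlapped that of the Otof Col12a1 Glis3 subtype. The Rspo2 Adamts2 subtype (225 nuclei) was the lowest of the 19 classes at 4.79 ± 3.18 CPM. Between them lay the Rspo2 Col5a2 (10.3 CPM), Htr7 Col26a1 Cux2 (9.14 CPM) and Rorb (9.09 CPM) subtypes, whose ranges overlapped one another. Neurons with Slc17a6 and without Slc17a7 were scarce (89 nuclei) and held 5 Wfs1 UMIs.

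Glia and vascular cells carried Wfs1 at low levels that could not be ordered. Astrocytes (3270 nuclei) stood at 24.9, 20.5, 21.1 and 13.99 CPM in WT replicates 1 and 2 and DISC1-N replicates 1 and 2. Microglia stood at 18.9 ± 7.09 CPM, mature oligodendrocytes at 16.3 ± 7.06 CPM, oligodendrocyte precursors at 14.5 ± 4.70 CPM and endothelial cells at 20.2 ± 7.31 CPM. From the fifth class of the order down to the last, the ranges of neighbouring classes overlapped throughout. Mural cells, the third by mean, held 0, 2, 7 and 2 UMIs in 21 to 46 nuclei per library, so their place rests on 1 library. A count of 0 in WT replicate 1 allows up to 3 UMIs at this depth, and such limits cover counting error only.

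Shares of nuclei with a UMI followed depth as well as level. Excitatory nuclei had a Wfs1 UMI in 11.3% ± 4.96 and astrocytes in 4.76% ± 1.64, the reverse of their CPM order, but the median excitatory nucleus held 8406 to 10171 UMIs and the median astrocyte 1857 to 2060. With every nucleus thinned to 1000 UMIs, the shares were 1.30% ± 0.37 and 2.16% ± 0.58. The thinned share was 7.42% ± 2.67 in the Foxp2 Penk class, 6.25% ± 1.14 in the Foxp2 low class and 0.78% ± 0.91 in Sst neurons, so that the thinned ranges of the Foxp2 classes overlapped while both stayed above Sst. Free RNA in the droplets can place a UMI in a nucleus that does not express the gene, and no class is known here to lack Wfs1. The Sst share, 2.70% ± 1.00 before thinning at median depths of 4284 to 6061 UMIs, was the lowest of any class.

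Wfs1 was also present in nuclei that no class claimed. The 6775 nuclei without a class stood at 27.3 ± 3.33 CPM, and 654 of them, with at least 3 Foxp2 UMIs and no transmitter markers, stood at 79.6 ± 14.6 CPM. The latter had a median depth of 3214 to 3527 UMIs, near that of the gated Foxp2 neurons. Nuclei with Foxp2 UMIs and high Wfs1 were therefore not all counted among the 1731 gated Foxp2 GABAergic nuclei. Whether the 654 nuclei were neurons of the same type was not tested.

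Within Foxp2 GABAergic nuclei the mean Wfs1 level went with the Penk count, though not step by step in every library. In nuclei with 0 Penk UMIs it was 48.6 ± 14.3 CPM (n = 4 libraries), with 1 UMI 68.1 ± 9.54 CPM, with 2 or 3 UMIs 71.7 ± 32.9 CPM and with 4 or more 106.2 ± 16.3 CPM. The lowest and the highest bin did not overlap, at 28.4 to 61.1 and 85.6 to 119.4 CPM. Between them the libraries differed. DISC1-N replicate 1 had 37.9 CPM with 2 or 3 Penk UMIs, below its 55.3 CPM with 0. WT replicate 2 had 97.9 CPM with 2 or 3 Penk UMIs, above its 85.6 CPM with 4 or more. Median depth did not climb with the Penk count (3920 to 5157 UMIs in the lowest bin, 3944 to 4134 in the highest). With each nucleus thinned to 2000 UMIs, the lowest bin held 59.5 ± 12.5 CPM and the others 95.4, 96.7 and 91.9 CPM, the last on 12 Wfs1 UMIs, and the bins then overlapped. These bins were chosen after the values had been seen and carry no test.

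**Figure D2:**
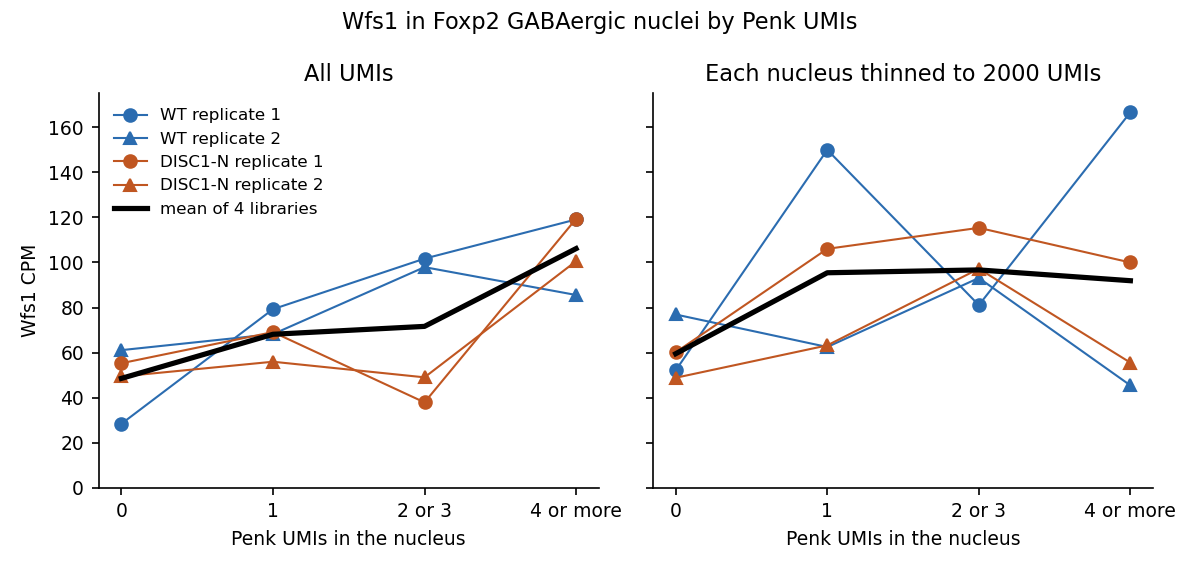
Wfs1 level (CPM, y axis) in Foxp2 GABAergic nuclei binned by their Penk UMIs (x axis), with all UMIs (left) and with each nucleus thinned to 2000 UMIs (right); thin lines are libraries and the thick line their mean. The mean goes from 48.6 to 106.2 CPM on the left. On the right it is 59.5 CPM in the lowest bin and 91.9 to 96.7 CPM in the others. There WT replicate 2 goes from 76.9 CPM in the lowest bin to 45.5 CPM in the highest, while the other libraries rise.

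The contrast between neuron classes was tested on summed counts with the library as a block. Foxp2 GABAergic nuclei (at least 3 Foxp2 UMIs) had 62.1, 72.8, 64.7 and 57.5 CPM of Wfs1 in WT replicates 1 and 2 and DISC1-N replicates 1 and 2. GABAergic nuclei with 0 Foxp2 UMIs (1722 nuclei) had 22.3, 12.9, 16.3 and 15.9 CPM. The groups did not overlap, and the log2 fold change was 2.03 ± 0.14 (SE), with an adjusted p of 2.78e-12 in edgeR's quasi-likelihood test with Benjamini-Hochberg adjustment. In this contrast 36.9% of 11988 genes were called, 17.7% in the same direction. GABAergic nuclei as a whole (3656 nuclei, 34.7 to 41.2 CPM) exceeded excitatory nuclei (7.51 to 14.1 CPM) by a log2 fold change of 1.69 ± 0.11, with an edgeR adjusted p of 6.74e-09. There 51.7% of 15728 genes were called, 26.9% of all of them higher in GABAergic nuclei. Both differences had the same direction in 4 of 4 libraries and passed the test under every alternative that could be fitted. In the second, Foxp2 GABAergic nuclei held 520 of the 705 Wfs1 UMIs of the GABAergic side. GABAergic nuclei with 0 Foxp2 UMIs were above excitatory nuclei in each library, but their range (12.9 to 22.3 CPM) overlapped the excitatory range. That difference was not tested.

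Wfs1 did not differ detectably between DISC1-N and WT libraries in any class tested. In Foxp2 GABAergic nuclei the mean was 67.4 ± 7.61 CPM in WT and 61.1 ± 5.10 CPM in DISC1-N libraries (n = 2 each), with a difference of 2.69 CPM within replicate 1 and -15.3 CPM within replicate 2. The log2 fold change there was -0.15 ± 0.21. It was -0.17 ± 0.29 in excitatory nuclei, -0.14 ± 0.19 in all GABAergic nuclei, -0.36 ± 0.32 in astrocytes, 0.06 ± 0.56 in mature oligodendrocytes, -0.67 ± 0.52 in oligodendrocyte precursors and -0.42 ± 0.57 in microglia. Each edgeR adjusted p was 1.00. Of all genes, edgeR called 0.0% in each class, as did DESeq2 and limma-voom, while 96 genes in excitatory and 150 in Foxp2 GABAergic nuclei had an unadjusted p under 0.05 in edgeR. The direction in excitatory nuclei turned when WT replicate 1 (0.076) or DISC1-N replicate 2 (0.14) was left out, and that in Foxp2 GABAergic nuclei when WT replicate 2 was left out (0.029).

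By subtype, the genotypes did not overlap in 5 of 19 classes. Foxp2 Penk nuclei had 104.5 ± 10.1 CPM in WT and 84.8 ± 7.99 CPM in DISC1-N libraries, with differences of -21.1 and -18.1 CPM within replicates 1 and 2. Sst neurons, Htr7 Col26a1 Cux2 neurons and oligodendrocyte precursors were also lower in both DISC1-N libraries. The Otof Col12a1 Glis3 subtype was higher in both, by 14.3 and 8.73 CPM within replicates 1 and 2. A two-sided exact permutation test of 2 against 2 libraries gave p = 0.333 for each of these, the smallest value it can give, and an adjusted p of 0.905 over the 19 classes.

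Foxp2 GABAergic nuclei with a Wfs1 UMI differed from those without in few genes, with Tac2, Penk and the ER chaperone gene Hspa5 among the higher ones. Of 1731 nuclei, 422 had a UMI. Their median depths were close (3995 to 4406 UMIs with, 3676 to 4552 without). Of 8906 genes, 0.258% were called, 23 in all, 8 of them (0.0898%) higher with Wfs1 and 15 (0.168%) lower. The count was 15 when WT replicate 1 was left out, 53 when DISC1-N replicate 1 was, 6 in DESeq2, and 0 after thinning to 2000 UMIs or in a model that did not match the sums by library. Penk itself had 485.2, 429.8, 339.6 and 390.3 CPM with Wfs1, in WT replicates 1 and 2 and DISC1-N replicates 1 and 2, against 212.0, 354.3, 233.4 and 280.2 CPM without. It was higher in every library, by a log2 fold change of 0.57 ± 0.10 (edgeR adjusted p = 0.00149). Tac2, which encodes neurokinin B, stood at 49.8 ± 14.2 and 28.2 ± 11.1 CPM, a log2 fold change of 0.96 ± 0.21 (edgeR adjusted p = 0.00647). When WT replicate 2 was left out, Tac2 stood at 0.60 and lost its call (edgeR adjusted p = 0.632).

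Hspa5, which encodes BiP, the main ER chaperone of the Hsp70 family, was the only gene of the wolframin pathway list called in this comparison. It had 158.9, 139.7, 145.6 and 66.3 CPM with Wfs1 and 97.6, 89.1, 102.6 and 53.2 CPM without, in the same library order. The values with Wfs1 were higher in each library, and DISC1-N replicate 2 was the lowest on both sides. The log2 fold change was 0.56 ± 0.13, with an edgeR adjusted p of 0.0128. The call was lost without WT replicate 1 (edgeR adjusted p = 0.137) and without WT replicate 2 (0.314). The other higher genes named by the rule were Itm2c (0.59 ± 0.09), Prnp (the prion protein gene, 0.47 ± 0.11), Aplp1 (a relative of the amyloid precursor protein gene, 0.45 ± 0.10) and Ly6h (0.33 ± 0.07), each as a log2 fold change. Prnp, Aplp1 and Ly6h lost their calls when either WT replicate 1 or WT replicate 2 was left out, and Aplp1 also without DISC1-N replicate 2. The eighth, the sex-linked Pcsk1n (0.49 ± 0.09), is outside the rule and was chosen after its value was seen.

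Among the genes lower with Wfs1, Chrm3 and Grik1 had the largest differences. Chrm3, the muscarinic M3 receptor gene, had 22.3, 24.2, 61.5 and 51.2 CPM with Wfs1 and 101.3, 69.0, 81.9 and 83.7 CPM without, a log2 fold change of -1.10 ± 0.18 (edgeR adjusted p = 0.000125). The difference was largest in the WT libraries. Grik1, a kainate receptor subunit gene, stood at 44.8 ± 15.6 and 100.9 ± 25.7 CPM, a log2 fold change of -1.04 ± 0.16. The rest named by the rule were Hs3st4, Tafa1, Zfp804a, Sgcz, Cntnap5b, Dscam, Lrrtm4 and Robo2, with log2 fold changes of -0.95 to -0.40. With the gated subtype as a covariate, edgeR called 0 genes of 3053 tested (186 at an unadjusted p under 0.05), and Penk stood at 0.19 ± 0.16. The Foxp2 Penk class made up 49.3% of nuclei with Wfs1 against 26.0% of those without in WT replicate 1, and 41.1 against 30.8%, 34.5 against 24.7% and 33.8 against 24.8% in the other libraries. Summed excitatory markers stood at 41.6 to 92.0 CPM with Wfs1 and 39.9 to 102.3 CPM without, and 2 of 6 excitatory and 7 of 12 microglial markers were higher with Wfs1.

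**Figure D3:**
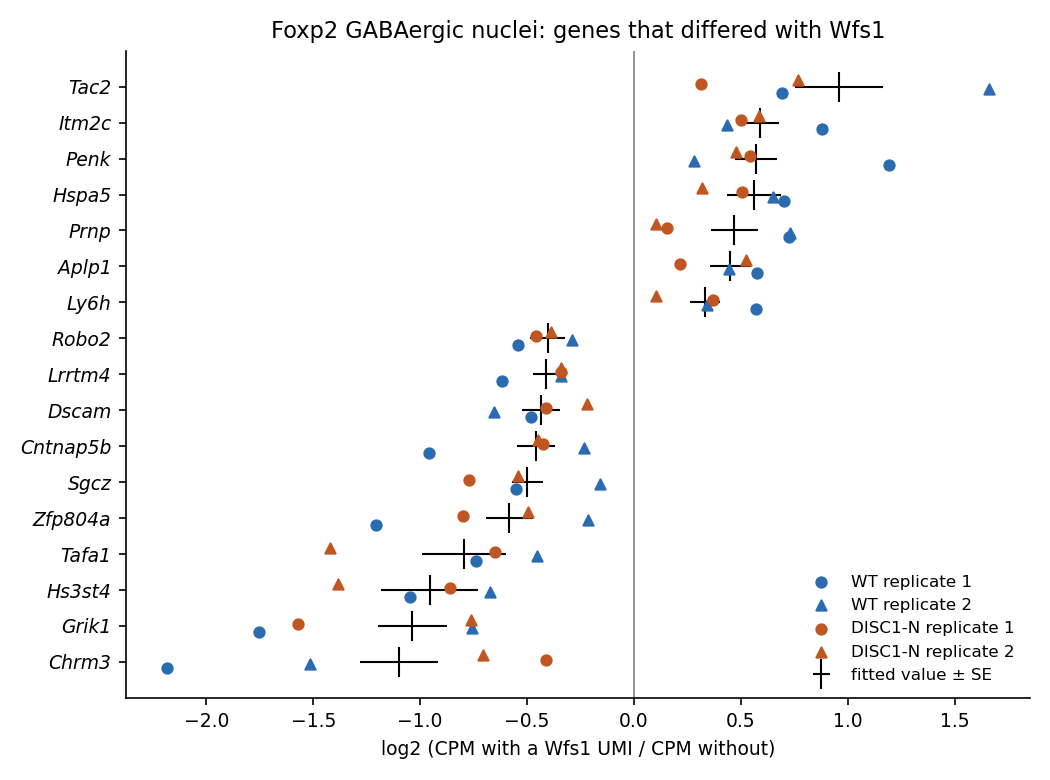
log2 ratio of CPM in Foxp2 GABAergic nuclei with a Wfs1 UMI to CPM in those without (x axis) for the 17 genes named by the rule (y axis); points are libraries and crosses the edgeR value ± SE. All 4 libraries lie on the same side of 0 for each gene, which the rule required, from Tac2 (0.96) to Chrm3 (-1.10).

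Excitatory nuclei with a Wfs1 UMI differed from those without in Penk, Sv2c, Meis2 and Gad2, among others. Of 5724 nuclei, 628 had a UMI. Of 15323 genes 1.71% were called, 262 in all, 194 (1.27%) higher with Wfs1 and 68 (0.444%) lower. The count was 85 when WT replicate 1 was left out, 106 when DISC1-N replicate 1 was, 94 in DESeq2, 40 after thinning and 0 in a model that did not match the sums by library. Penk had 47.4, 27.3, 34.2 and 9.77 CPM with Wfs1 and 21.4, 12.1, 13.8 and 5.95 CPM without, in WT replicates 1 and 2 and DISC1-N replicates 1 and 2. It was higher in each library, by a log2 fold change of 1.20 ± 0.10 (edgeR adjusted p = 3.78e-07). Sv2c, a synaptic vesicle glycoprotein gene, was higher by 1.14 ± 0.11, Meis2, a homeobox gene of striatal-like neurons, by 0.87 ± 0.08 and Gad2, a GABA synthesis enzyme gene, by 0.77 ± 0.10.

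Depth and marker UMIs of other cells moved with this split. In WT replicate 1 the median depth was 13846 UMIs with Wfs1 and 8876 without. It was 17076 and 9636 in the first DISC1-N library, but 8879 and 8365, and 10055 and 9074, in the replicate 2 libraries. Summed GABAergic markers stood at 81.0 against 47.3 CPM, 33.5 against 24.2 CPM, 74.2 against 44.3 CPM and 19.5 against 15.7 CPM in the library order above. All 3 GABAergic, 8 of 9 astrocyte, 8 of 9 mature oligodendrocyte and 12 of 12 microglial markers were higher with Wfs1, and the median doublet score was higher in each library. Of these, only GABAergic markers were followed further, by leaving out nuclei with a Gad1, Gad2 or Slc32a1 UMI. That step also took out deeper nuclei, with median depths of 10057 to 15768 UMIs against 8169 to 9168 in those kept. The median depth was then 8943 UMIs with Wfs1 and 8453 without in WT replicate 1, and 10955 and 9006 in DISC1-N replicate 1. Depth, the smaller number of nuclei and GABAergic marker UMIs therefore cannot be told apart by this step.

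In the 4472 excitatory nuclei without such a UMI, Wfs1 was still present, at 9.99 ± 2.42 CPM against 13.3 ± 3.11 CPM in the 1252 nuclei with one. There 213 genes were called, 80 of the 262 among them. Among the named genes, those still called were Inhba, which encodes the activin A subunit (0.90 ± 0.18), Plce1, a phospholipase C gene (0.75 ± 0.13), Otof, the otoferlin gene (0.64 ± 0.13), Dock10, a guanine exchange factor gene (0.60 ± 0.10), and Meis2 (0.40 ± 0.10). Over all excitatory nuclei, Inhba lost its call when WT replicate 1 was left out (0.43, edgeR adjusted p = 0.296). The log2 fold change of Penk was 0.35 ± 0.24 (edgeR adjusted p = 0.717) and that of Sv2c 0.64 ± 0.22 (0.197), while Sox2ot also missed the threshold and Gad2 could not be tested.

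Otof marks the excitatory subtype with the highest mean Wfs1 level. That subtype made up 4.95 and 2.83% of excitatory nuclei with Wfs1 in the WT libraries and 8.33% in both DISC1-N libraries. Among nuclei without Wfs1 its share was 3.13, 1.78, 2.36 and 2.35% in the same order. Otof itself had 47.7, 38.8, 40.6 and 52.9 CPM with Wfs1 and 31.5, 25.3, 29.6 and 27.8 CPM without, so the sides did not overlap. Its log2 fold change over all excitatory nuclei was 0.63 ± 0.09 (edgeR adjusted p = 0.000278). With the subtype as a covariate Otof stood at 0.43 (edgeR adjusted p = 0.381), Dock10 at 0.53 (0.0954) and Plce1 at 0.52 (0.137), and their calls were lost. Of the named genes that could be tested in this model, 6 kept their call and 5, these among them, lost it. Of the 262 genes called over all excitatory nuclei, 168 were tested there and 27 stayed called.

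The genes lower with Wfs1 in excitatory nuclei included Ubb, a polyubiquitin gene, Hsp90aa1, a cytosolic chaperone gene, Mif, a cytokine gene, and Atp5o, an ATP synthase subunit gene. Their log2 fold changes ran from -0.52 ± 0.10 for Mif to -0.39 ± 0.06 for Ubb. None of the 9 lower genes followed here passed the test in nuclei without a GABAergic marker UMI, where Mif stood at -0.06 ± 0.13 and Hsp90aa1 at -0.17 ± 0.08.

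**Figure D4:**
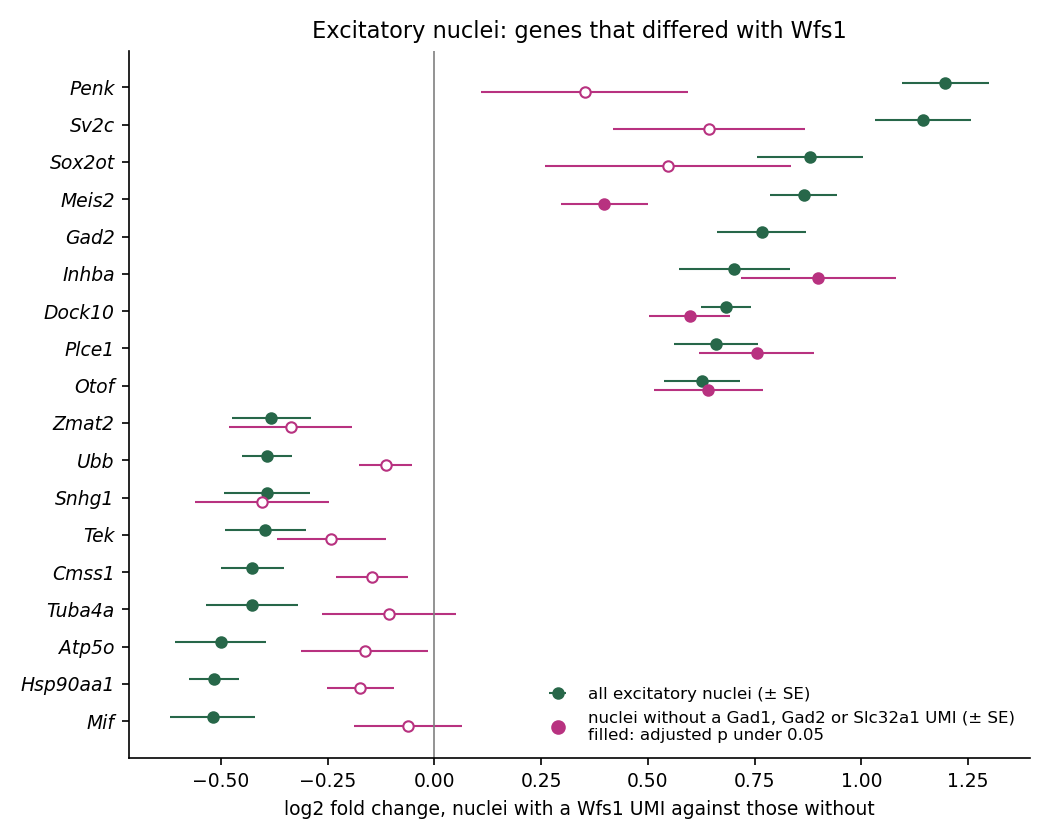
log2 fold change between excitatory nuclei with and without a Wfs1 UMI (x axis, ± SE) for 18 of the genes the rule picks (y axis), in all excitatory nuclei (green) and in nuclei without a Gad1, Gad2 or Slc32a1 UMI (magenta, filled where the adjusted p is under 0.05). Inhba, Plce1, Otof, Dock10 and Meis2 stay called, while Penk goes from 1.20 to 0.35; Gad2 has no second point.

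Across both comparisons 3 genes were called, and 1 of them in the same direction, Penk. Lrrtm4, a synaptic adhesion gene, was lower with Wfs1 in Foxp2 GABAergic nuclei (-0.41 ± 0.06) and slightly higher in excitatory nuclei (0.12 ± 0.03). Ptprm, a receptor phosphatase gene, did likewise (-0.36 ± 0.09 and 0.52 ± 0.09). The differences between the neuron classes were not tested.

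Across the 19 classes, Tmem158 and Ppp1r1b led the genes with levels like that of Wfs1, gene models, mitochondrial, ribosomal and sex-linked genes left aside. By Pearson r of log2(CPM + 1) over class means the 10 nearest of the genes not left aside were Tmem158 (0.89), Ppp1r1b (0.88), Fam117a (0.85), Npffr2 (0.84), Chst9 (0.84), Meis2 (0.83), Map2k1 (0.82), Pbx3 (0.80), Pdyn (0.80) and Slc38a10 (0.79), of 14412 genes compared. Ppp1r1b encodes DARPP-32, a phosphatase inhibitor of dopamine-receptive neurons, Npffr2 a neuropeptide FF receptor and Pdyn prodynorphin. The gate genes Foxp2 (0.77) and Penk (0.74) stood at positions 23 and 40, the median gene at 0.07, and 12 genes, those left aside included, passed 0.8. Classes share libraries and depth, so these values describe and are not tested. With 1 library left out, the lowest r was 0.84 for Tmem158, 0.63 for Ppp1r1b and 0.41 for Slc38a10. Ppp1r1b was highest in mural cells (26.9 CPM), whose Wfs1 level rests on 1 library, and its r was 0.86 with mural cells left out. Meis2 shows the pattern: 2204 CPM in the Foxp2 Penk and 2148 CPM in the Foxp2 low class, against 96.7 CPM in Sst and 65.4 CPM in Rspo2 Adamts2 neurons. Map2k1, which encodes the kinase MEK1, varied less, from 59.3 CPM in Sst to 173.7 CPM in Foxp2 low neurons.

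**Figure D5:**
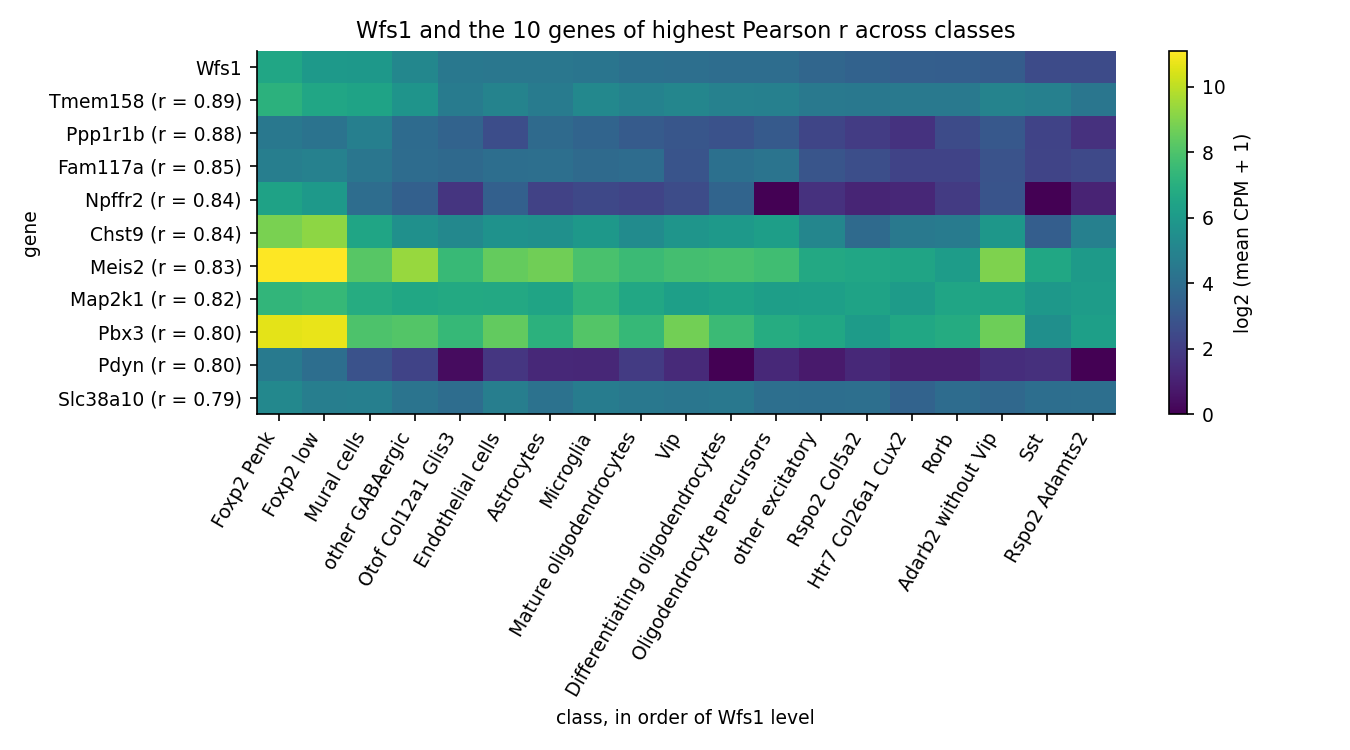
Heat map of log2(mean CPM + 1) for Wfs1 and the 10 named genes of highest Pearson r with it (y axis, r in brackets) over the 19 classes in order of Wfs1 level (x axis). Meis2, Pbx3, Chst9 and Npffr2 are brightest in the Foxp2 classes at the left, while Map2k1 and Slc38a10 change little.

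Genes that act with wolframin did not share its distribution closely. A list of 26 such genes was followed, covering the unfolded protein response sensors and their targets, ER chaperones, calcium channels and pumps, calmodulins, and the proteins that wolframin is reported to bind. Ddit3, a stress-induced transcription factor gene, got no value in any comparison, even where every gene with a count was tested. Gene symbols that occurred more than once were renamed before the fits and could not match the list. Whether Ddit3 was among them was not checked. The missing value therefore does not show a lack of counts, and the level of Ddit3 is not known here. Among the stress sensors, only Atf6, whose protein wolframin holds in check, was called in the Foxp2 contrast (0.28 ± 0.09), and it was lower in GABAergic than in excitatory nuclei (-0.32 ± 0.05). Of the chaperones, Hspa5 (0.72 ± 0.06), Hsp90b1 (0.65 ± 0.05), Calr (0.48 ± 0.09) and Canx (0.47 ± 0.06) were higher in GABAergic than in excitatory nuclei, and none of them was called between Foxp2 and other GABAergic nuclei.

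The ER calcium release channels Ryr2 (0.46 ± 0.06) and Itpr1 (0.44 ± 0.07), the calcium sensor Ncs1 (0.38 ± 0.11) and the calmodulin gene Calm2 (0.35 ± 0.07) were higher in Foxp2 than in other GABAergic nuclei. The calcium pump Atp2a2 (-0.29 ± 0.07), the mitochondrial channel Vdac1 (-0.32 ± 0.08), the protease gene Capn2 (-0.57 ± 0.16) and the ATPase subunits Atp6v1a (-0.27 ± 0.09) and Atp1b1 (-0.24 ± 0.08) were lower. In all, 6 were higher and 5 lower of 25 tested, where 17.7% of all genes were higher and 19.2% lower, with a median log2 fold change of -0.09 against -0.01 over all genes. DESeq2 called 3 of them, all higher. In the GABAergic against excitatory contrast 10 were higher and 4 lower, where 26.9% of all genes were higher and 24.8% lower, with a median of 0.08 against 0.02. Ryr2 was the largest difference there, at -0.86 ± 0.04.

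With a Wfs1 UMI in Foxp2 GABAergic nuclei, the other chaperones and Atp1b1 had positive values that missed the threshold. Atp1b1, a sodium pump subunit that binds wolframin, stood at 0.29 ± 0.08 (edgeR adjusted p = 0.0752), Canx at 0.39 ± 0.12 (0.209) and Hsp90b1 at 0.29 ± 0.11 (0.359). The median over 24 members was 0.03 against 0.00 over all genes. In excitatory nuclei Calm2 alone was called, at -0.21 ± 0.04 (edgeR adjusted p = 0.0131). That call was lost when WT replicate 1 (-0.18) or DISC1-N replicate 1 (-0.20) was left out, in DESeq2 (-0.20), and in nuclei without a GABAergic marker UMI (-0.04), among others. Across classes the likeness to Wfs1 was highest for Calm2 (r = 0.57) and Hspa5 (0.51), at positions 295 and 522 of 14412 genes. Cisd2, the gene of the other Wolfram syndrome protein, stood at 0.14 and position 5902. Sel1l was the lowest of the list at -0.25, and the median over all genes was 0.07.

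Between genotypes 0 of the tested members were called in any class (0.0% of all genes in edgeR). In Foxp2 GABAergic nuclei 3 members had an unadjusted p under 0.05, Calr (-0.66 ± 0.26), Canx (-0.42 ± 0.19) and Surf4 (-0.98 ± 0.46), each with an adjusted p of 1.00. The list's median log2 fold change was -0.15 there and -0.08 in excitatory nuclei, against -0.00 over all genes in both. Without DISC1-N replicate 2 these medians were -0.01 and 0.02, and without DISC1-N replicate 1 they were -0.33 and -0.21. When replicate numbers, which the labels do not tie to animals, entered the model as a block, edgeR called 0.616% of all genes in excitatory, 0.251% in GABAergic and 0.0169% in Foxp2 GABAergic nuclei, 0.175% in astrocytes, 0.124% in mature oligodendrocytes, 0.0306% in oligodendrocyte precursors and 0.112% in microglia. Wfs1 was called in none, and 2 members of the list were called lower in excitatory and 2 in GABAergic nuclei.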

How the data were processed

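The authors deposited raw UMI counts per gene and barcode, made with Cell Ranger on mm10 per the submitters' processing notes; per the file headers, replicate 1 libraries came from version 7.0.0 and replicate 2 libraries from 6.0.2, whereas the notes name 7.0.0 throughout. Whether introns were counted, and how barcodes were called, is not stated in the sources read. Barcodes with 500 or more genes and no more than 5% mitochondrial UMIs were kept (26850 of 27313), and those of highest Scrublet score were dropped at 0.8% per 1000 (scanpy 1.11.5, Python 3.11.15).

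A nucleus was given a class when over 50% of its class marker UMIs came from that class, and a subtype by a few gate genes. The GABAergic class needed 2 UMIs of any of its markers, or 1 such UMI beside at least 3 Foxp2 UMIs. Other classes needed at least 2 UMIs from at least 2 markers. This gate was revised after the data, including Wfs1 levels, had been seen: the gate first written, with a share of 2/3, classed 57.2% of nuclei and 1387 GABAergic nuclei, and 2 precursor markers carried by neurons were dropped. It is an alternative below. Wfs1, the classes, the 26-gene list and all rules were chosen with earlier results of these data known.

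Per class and library, counts were added up and tested in edgeR 4.0.16 (R 4.3.3; quasi-likelihood, TMM, filterByExpr minimum count 10) with Benjamini-Hochberg adjustment over all genes and a threshold of 0.05. The SE is the absolute log2 fold change divided by the square root of F. DESeq2 1.42.0 and limma 3.58.1 were run beside it, and the tests were tried on simulated data. In the splits the library is a block, and the sums of a library share their depth and cells. Named genes are the 10 largest in each direction among called genes with a mean of at least 20 CPM and the same sign in 4 of 4 libraries, without gene models, mitochondrial, ribosomal and sex-linked genes; only 7 higher genes met this in Foxp2 GABAergic nuclei. Pathway genes are named where called, with the 4 of lowest p. Some genes that these rules pick are not reported here, though counts of genes include them. Lrrtm4 and Ptprm in both splits were named after their values were seen. Alternatives are those listed in the closing section.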

Additional observations from a re-analysis of the deposited data

How the results depend on the processing

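The higher Wfs1 level of Foxp2 GABAergic nuclei kept its direction and call under every alternative that could be fitted (log2 fold change 1.82 to 2.75), as did that of GABAergic over excitatory nuclei (1.501 to 1.79). The Foxp2 Penk level was 89.0 to 99.8 CPM with 1 library left out and 78.3 CPM thinned to 1000 UMIs. No genotype difference of Wfs1 was called in 87 alternative fits (adjusted p 0.838 to 1.00). Its sign turned in excitatory nuclei with a stricter gate (0.061; -0.59 to 0.14 with 1 library left out), in Foxp2 GABAergic nuclei (-0.28 to 0.029) and microglia (-1.30 to 0.22) with 1 library left out, and in mature oligodendrocytes with limma-voom (-0.031), all doublets kept (-0.11), the stricter gate (-0.40), no deep nuclei (-0.16) and 1 library left out (-0.58 to 0.67).

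The counts of genes called with and without Wfs1 depended on the processing. In Foxp2 GABAergic nuclei 23 became 0 without the library block, 6 in DESeq2, 58 without an expression filter, 0 after thinning to 2000 UMIs, 7 with at least 2 Wfs1 UMIs, 0 with the subtype as covariate, 0 with the gate first written and 15 to 53 with 1 library left out. In excitatory nuclei 262 became 0, 94, 499, 40, 170, 30, 133 and 85 to 291 in the same order. The cause was not tested. Of the 23 genes, 21 of 21 tested kept their direction after thinning, and of the 262, 151 of 222. Signs turned for Tac2 with at least 2 Wfs1 UMIs (-0.61), after thinning for Atp5o (0.050), Tuba4a (0.53; 0.017 with the first gate), Cmss1 (0.27), Calm3 (0.61; 0.11 with the first gate, 0.020 without GABAergic marker UMIs) and Ryr2 (-0.085; -0.0086 with the subtype), for Sel1l in GABAergic against excitatory nuclei thinned to 1000 UMIs (0.0042), and for Hspa5 between genotypes in excitatory nuclei with 1 library left out (-0.97 to 0.020). The 10 genes most like Wfs1 shared 3 with a Spearman ranking and 6 to 8 with 1 library left out.

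The labels tie the replicate numbers to no animal. Same-numbered libraries deviated together from the means of their genotypes (r = 0.55 to 0.85 in 4 classes). With 2 libraries per genotype, both replicate numbers give the same r by construction. With the replicate block 105 genes were called in excitatory, 35 in GABAergic and 2 in Foxp2 GABAergic nuclei, never Wfs1, whose log2 fold changes with this block were -0.17, -0.15 and -0.17. Hspa5 (-0.41) and Hsp90b1 (-0.34) in excitatory and Calr (-0.61) in GABAergic nuclei were called in it. The looser gate was not run on its own, since the gate used has its share. The stricter gate left too few nuclei for GABAergic fits. Limits were scarce Wfs1 counts and 2 libraries per genotype.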
